A study of Homo sapiens with 2 samples.

Results

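The genes of transforming growth factor beta (TGF-beta), activin and bone morphogenetic protein (BMP) signalling were compared between OECM1 cells that expressed let-7i from a vector and OECM1 cells with the empty vector. OECM1 is a cell line from a cancer of the head and neck. The members are 40 genes picked by name for their known part in the pathway, with earlier results of these data already known. They are 7 ligands, 3 latent binding proteins, 10 receptors, 5 receptor and common SMADs, 4 inhibitors outside the cell or in its membrane, 7 inhibitors inside the cell and 4 targets. Of the 40, 39 had a probe set of their own among the 19775 genes that could be named on the array, with 114 probe sets in all. BMPR1A, a type I BMP receptor, is not analysed here.

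OECM1-let7i carried pmCherry-let7i, which expresses the microRNA, and OECM1-mCherry carried the pmR-mCherry empty vector, where mCherry is a red fluorescent protein. The design text calls the let-7i transfection stable, and both lines were grown alike, in RPMI medium with fetal bovine serum. The labels do not say whether either line is a clone or a pool, nor how much let-7i was expressed. There was 1 array in each group, so no difference below has a replicate check, no test across samples was possible, and every comparison is of these 2 cultures. Total RNA was labelled with biotin and read as 1 signal per probe set. The comparison asks how the transcriptome differs once let-7i is expressed.

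let-7i is a short RNA that guides Argonaute proteins to messenger RNAs, which it recognises mainly through its seed, bases 2 to 8 from the 5′ end. The mature strand is shown because it is the agent of the whole comparison, with the seed in capitals. The RefSeq table of build GRCh38.p14 places it at chr12:62603691-62603712 on the + strand, and 11 of the 2370 mature microRNAs in that table have the same seed.
hsa-let-7i-5p: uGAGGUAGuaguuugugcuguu

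TGF-beta, activin and BMP ligands are secreted dimers that bring together type I and type II receptor kinases. The type I receptor phosphorylates receptor SMADs, SMAD2 and SMAD3 for TGF-beta and activin or SMAD1 and SMAD5 for BMPs, which pair with the common SMAD4 and regulate genes in the nucleus. In squamous epithelium TGF-beta slows growth and, in carcinoma cells, can promote an epithelial to mesenchymal transition. Antagonists such as follistatin, inhibitory SMADs and ubiquitin ligases hold the signal in check.

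The arrays matched an epithelial cancer line by most, though not all, of the fixed markers. Of 12 epithelial genes 9 had a probe set, and 6 of these were above the floor (the median signal of each array, 79.5 for OECM1-let7i and 88.0 for OECM1-mCherry), among them the keratins KRT8 and KRT18. The basal keratins KRT5 (7.88 with let-7i and 11.9 with the empty vector) and KRT14 (9.85 and 29.3, in the same order of lines) and the desmosomal cadherin DSG3 were below it on both arrays. The epithelial markers summed to a signal of 64935 in OECM1-let7i and 73104 in OECM1-mCherry, and 1 was past 1.5-fold, EPCAM, with 6690.2 in OECM1-let7i and 10912.0 in OECM1-mCherry. Of 12 fibroblast markers 5 were above the floor, with a sum of 4015 in OECM1-let7i and 4749 in OECM1-mCherry, while PDGFRA, PDGFRB, COL1A2, COL3A1, LUM, THY1 and DPT were below it on both. The brightest of them, FBLN1, was past 1.5-fold lower (2321 with let-7i, 3695 with the empty vector), while POSTN, DCN and FAP were past 1.5-fold higher. Endothelial markers reached the floor in 1 of 8 and summed to 507 with let-7i and 514 with the empty vector, and leukocyte markers in 4 of 9, with sums of 632 and 701, where CD3E was past 1.5-fold lower (90.4 with let-7i, 173 with the empty vector). The 3′ to 5′ signal ratio of GAPDH, a sign of RNA quality, was 0.934 in OECM1-let7i and 0.948 in OECM1-mCherry, and that of ACTB 1.26 and 1.21.

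Of the 34 members with a ratio 27 differed by less than 1.3-fold between the lines, much as 9499 of 12284 genes did. Past 1.5-fold were 6 members, where the background over all genes was 10.1%. INHBB, a subunit of activin B, was 4.03-fold lower with let-7i. ID3, a nuclear target of BMP signalling, was 2.66-fold lower, and FST, follistatin, which binds and neutralises activins, was 2.56-fold higher. LTBP3, LTBP4 and the inhibitory SMAD6 were between 1.66-fold and 1.82-fold lower in their brightest probe sets. In bulk RNA, fewer cells with a transcript and less of it per cell cannot be told apart.

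A log2 ratio below is OECM1-let7i over OECM1-mCherry, so that a negative one means lower with let-7i. It is centred on the median of the genes measured on both arrays, and a gene stands for its brightest probe set. Signals under the floor were raised to it, so that such a ratio is a bound, and a gene under it on both arrays got no ratio. By this rule 34 of the 39 members had a ratio, 33 measured on both arrays and BMP7 as a bound, and 5 (BMP2, ACVR1C, SMAD4, GREM1 and ID2) were below the floor on both. Of the members with a ratio 18 were above 0, where the background over all 12284 genes was 48.7%, and 16 below 0, where it was 51.3%, with a median log2 ratio of 0.03, against -0.01 over all genes.

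At least 2-fold higher was 1 member, where the background over all genes was 1.06%, and 2 were at least 2-fold lower, where it was 1.38%. At 1.5-fold, 1 member was higher and 5 were lower, where the backgrounds were 4.18% and 5.93% (514 genes higher and 728 lower). Centring along the signal with lowess moved those splits to 2 members higher and 5 lower, and to 639 genes higher and 569 lower. The count of 5 lower depended on the choice of probe sets, with 3 lower by the mean of a gene's probe sets and 1 lower without probe sets that can match several transcripts. It also depended on the floor. With the floor at the 25th percentile 7 of 39 members were lower, as were 2444 of 17193 genes. With it at the 65th 4 of 31 members were lower, as were 347 of 9717 genes. At 3-fold no member was higher and INHBB alone was lower, where the backgrounds were 0.277% and 0.195%, and 0.472% in both directions together. In both directions together, 17.6% of the 34 members were past 1.5-fold, against 10.1% of all genes, and 8.82% past 2-fold, against 2.43%. With so few members past either size, and members chosen with earlier results of these data known, these shares are a description. The lower and upper quartiles of the members were log2 ratios of -0.23 and 0.14, and those of all genes -0.21 and 0.17.

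The error that these data do give is that of a probe set, the spread of log2 ratios between the 2 brightest probe sets of the same gene. Its SD was 0.25 over 5807 genes, 0.34 in the dimmest and 0.15 in the brightest of 4 signal classes, and it covers probe noise and no variation between cultures. By the SD that belongs to their signal, 21 of the 34 members were within 1 SD of no difference, as were 58% of all genes. Past 3 SDs were 4 members, where the background was 5.03%: INHBB at 7.89, ID3 at 6.79, LTBP3 at 4.14 and FST at 4.03. Of the 20 members with at least 2 probe sets measured on both arrays, all probe sets had the same sign in 9 (45%), against 51.0% of the 5807 genes.

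**Figure D1:**
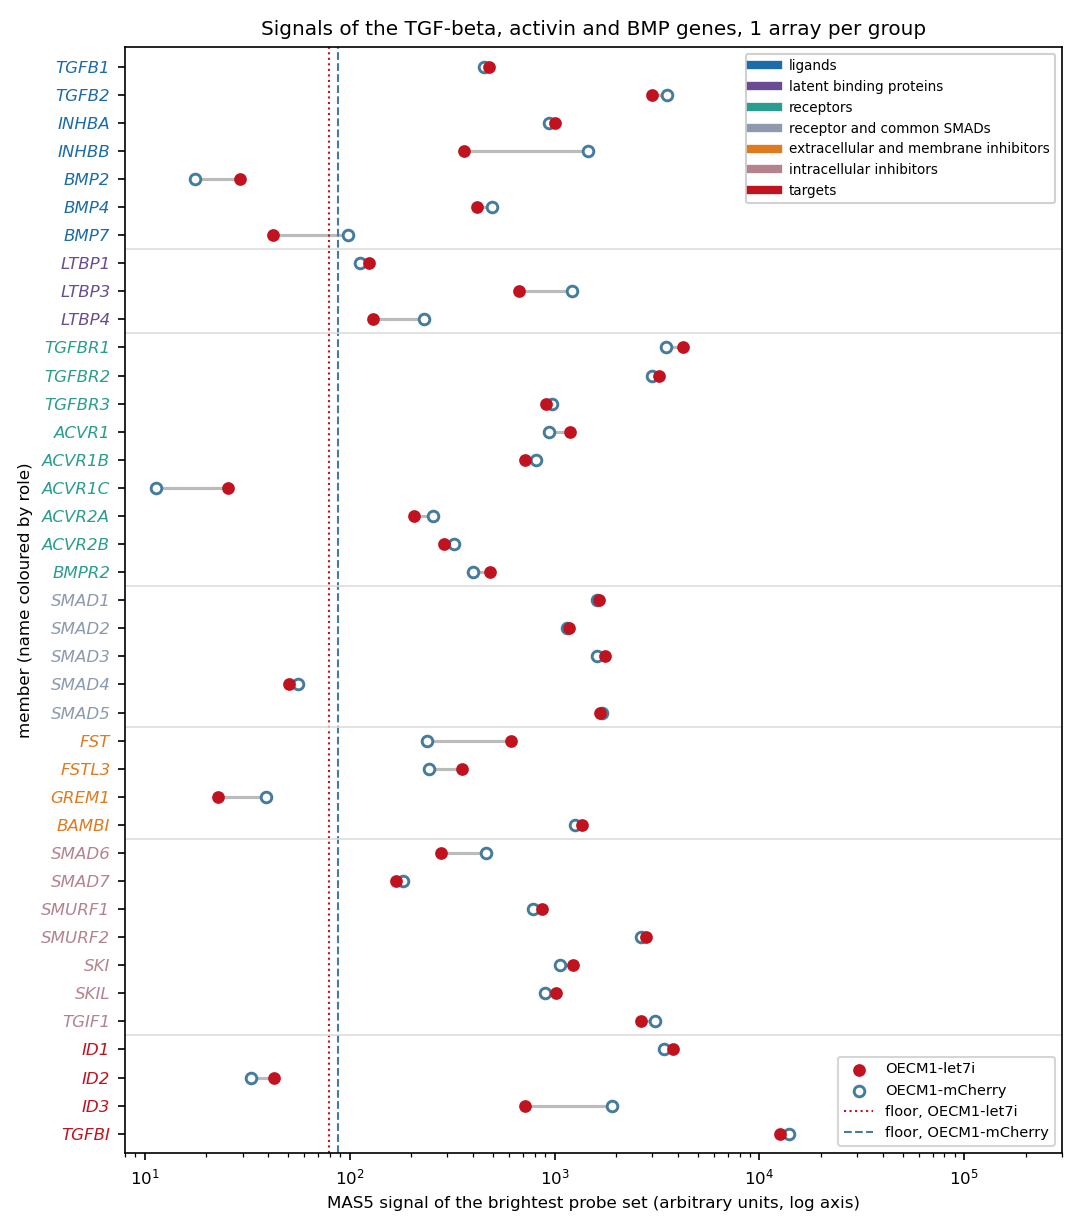
MAS5 signal (arbitrary units, log axis) of the brightest probe set of each of the 39 members on the OECM1-let7i array (filled red) and the OECM1-mCherry array (open blue), joined by a grey line, with the floor of each array as a vertical line and names coloured by role. Among members above both floors the long lines belong to INHBB, ID3 and FST, whereas the signals of most receptors and SMADs lie nearly on top of each other. BMP7 and ACVR1C also have long lines, at dim signals that reach under the floor. In all, 5 members lie left of both floors.

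Of the 6 ligands with a ratio INHBB alone was past 1.5-fold at the floor used, where 5.93% of all genes were lower by that much. INHBB, which encodes the beta B chain of activin B and inhibin B, had a signal of 363 in OECM1-let7i and 1460.4 in OECM1-mCherry, a log2 ratio of -2.01. That put it at rank 10 from the lowest of the 12284 genes. It has 1 probe set, so no second one could be set beside it, and its log2 ratio stayed between -2.02 and -1.99 in all of the settings that gave it a new ratio.

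The sister subunit did not share this. INHBA, the beta A chain of activin A, had signals of 1006 in OECM1-let7i and 935 in OECM1-mCherry, a log2 ratio of 0.10, and a second measured probe set was at 0.27. Both signs are opposite to that of INHBB, and both values are near the spread of a probe set.

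The TGF-beta ligands moved little. TGFB1 had signals of 479 with let-7i and 454 with the empty vector, a log2 ratio of 0.07, which is within the spread of a probe set. TGFB2 had 3002 with let-7i and 3532 with the empty vector, a 1.18-fold lower level. All 4 of its measured probe sets were lower, with log2 ratios from -0.64 to -0.17, the lowest coming from signals of 484 with let-7i and 753 with the empty vector.

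Of the BMPs, BMP4 had signals of 416 in OECM1-let7i and 495 in OECM1-mCherry, a log2 ratio of -0.25, about the size of the probe set spread at such signals. BMP7 reached the floor with the empty vector alone (42.1 in OECM1-let7i, 98.7 in OECM1-mCherry), which makes it at least 1.24-fold lower with let-7i, and its other 3 probe sets were below the floor on both arrays. BMP2 was below it in both of its probe sets, the brighter having 29.1 with let-7i and 17.6 with the empty vector, so no fold is given.

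The promoter of INHBB is shown because it was the member with the largest difference. RefSeq gives 1 start for it, and the 250 bases before that start are printed 5′ to 3′ on the strand of the gene. Capitals mark 2 matches to GGCGCC, a GC-rich element that SMADs of the BMP branch are known to bind, the nearer one at bases -171 to -166 before the start. Matches were sought on both strands, and this motif was present in 16.4% of 35116 such windows of all genes and in 24.7% of the 73 windows of 37 members. The match is of letters only.
INHBB promoter, chr2:120345886-120346135, + strand: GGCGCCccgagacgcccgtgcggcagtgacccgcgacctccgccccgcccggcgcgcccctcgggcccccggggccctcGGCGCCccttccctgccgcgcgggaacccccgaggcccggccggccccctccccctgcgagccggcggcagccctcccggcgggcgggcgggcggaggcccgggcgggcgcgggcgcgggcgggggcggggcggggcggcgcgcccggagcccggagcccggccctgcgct

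Latent binding proteins tether latent TGF-beta to the matrix. LTBP3 was lower in every probe set, while those of LTBP4 disagreed. LTBP3 had a signal of 671 in OECM1-let7i and 1215 in OECM1-mCherry, a 1.82-fold lower level. Its 3 probe sets gave log2 ratios of -0.86, -0.52 and -0.58, and the last of these came from dim signals of 83.3 with let-7i and 125 with the empty vector. Without probe sets that can match several transcripts this dim one stands for the gene, at -0.57.

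The brightest probe set of LTBP4 was 1.76-fold lower, with 131 in OECM1-let7i and 230.2 in OECM1-mCherry. A second probe set went the other way, with 164 in OECM1-let7i and 67.1 in OECM1-mCherry, at least 1.86-fold higher with let-7i. The mean of the probe sets was 0.06, so the direction of LTBP4 is not settled by these arrays. LTBP1, with 125 with let-7i and 112 with the empty vector, had a log2 ratio of 0.14, within the spread of dim probe sets.

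Of the 8 receptors with a ratio 0 were past 1.5-fold, where 10.1% of all genes were, which is too few genes to tell the share from the background. These receptors lay between log2 ratios of -0.31 and 0.33, 4 higher and 4 lower, with a median of 0.01.

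TGFBR1, the type I TGF-beta receptor and a reported let-7 target in other cells, was not lower with let-7i. Its brightest probe set had 4224 in OECM1-let7i and 3509 in OECM1-mCherry, and the 3 probe sets gave log2 ratios of 0.26, 0.30 and 0.13, all above 0. The type II receptor TGFBR2 had 3229 with let-7i and 2988 with the empty vector, a log2 ratio of 0.11, while its dimmer probe set gave -0.38. TGFBR3, the co-receptor betaglycan, which presents TGFB2, was close to equal at 914 with let-7i and 970.2 with the empty vector.

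ACVR1, a type I receptor of BMPs and activins, had the highest ratio of the receptors, with 1191 in OECM1-let7i and 945 in OECM1-mCherry, 1.26-fold higher in its 1 probe set. ACVR1B, the type I receptor for activins, had 718 with let-7i and 811 with the empty vector, and its 4 measured probe sets ran from -0.55 to -0.01. The type II receptor ACVR2A had 206 with let-7i and 254 with the empty vector, a log2 ratio of -0.31, and its other probe set gave 0.04.

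ACVR2B, the second activin type II receptor, was at 289.7 with let-7i and 322 with the empty vector, a log2 ratio of -0.16. The brightest probe set of BMPR2, the BMP type II receptor, had 482 in OECM1-let7i and 402 in OECM1-mCherry, 1.20-fold higher, but 3 dimmer probe sets were lower, from -0.29 to -0.18. ACVR1C, a type I receptor for nodal and activin B, did not reach the floor on either array, at 25.5 in OECM1-let7i and 11.3 in OECM1-mCherry.

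The receptor SMADs were close to equal in the 2 lines. SMAD1, which carries BMP signals, had 1647 with let-7i and 1616 with the empty vector, and SMAD5, which does so too, 1670.0 and 1709.7 in the same order, for log2 ratios of 0.02 and -0.04. SMAD2, which carries TGF-beta and activin signals, had 1176 with let-7i and 1145 with the empty vector, a log2 ratio of 0.04. SMAD3, its partner in that branch, had 1756 in OECM1-let7i and 1605 in OECM1-mCherry, a log2 ratio of 0.13. All 4 are within 1 SD of the probe set spread. Single probe sets of SMAD2 (-0.57, at 89.1 with let-7i and 132 with the empty vector) and SMAD3 (-0.56, at 453 with let-7i and 664 with the empty vector) fell below the rest of their gene. Another of SMAD2 was at least 1.37-fold higher as a bound (120 with let-7i, 82.1 with the empty vector). The probe sets of SMAD5 ran from -0.29 to 0.25.

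SMAD4, the common partner of all receptor SMADs, stood apart from them by its level. All 5 of its probe sets were below the floor on both arrays, the brightest at 50.7 in OECM1-let7i and 56.0 in OECM1-mCherry and the others between 0.416 and 24.6. No fold is given for it.

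**Figure D2:**
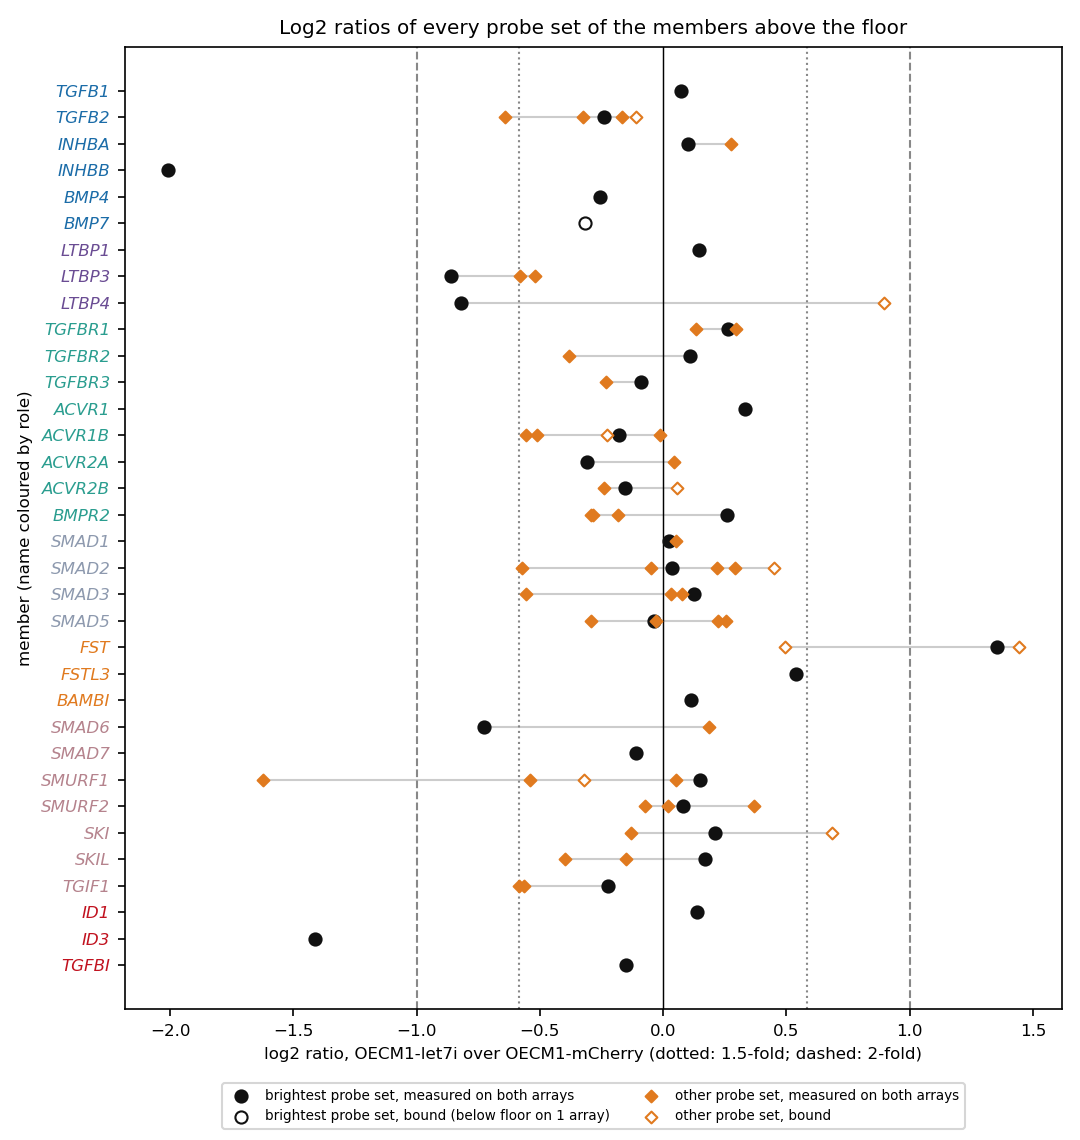
Log2 ratio (OECM1-let7i over OECM1-mCherry) of each probe set that reached the floor on at least 1 array, for the 34 members with a ratio, with the brightest probe set in black, the others as orange diamonds, bounds open, and dotted and dashed lines at 1.5-fold and 2-fold. The probe sets of LTBP3 and FST all lie on one side, those of LTBP4, SMAD6 and SMURF1 lie on both sides, and INHBB and ID3 rest on 1 probe set each.

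Of the inhibitors outside the cell and in the membrane, 3 had a ratio, and FST alone was past 1.5-fold, where 4.18% of all genes were higher by that much. All 3 ratios were above 0, as were 48.7% of all genes, with a median of 0.54. FST, follistatin, had a signal of 612 in OECM1-let7i and 239 in OECM1-mCherry, a log2 ratio of 1.36 and rank 54 from the highest of all genes. Its other 2 probe sets had 240.1 and 124 in OECM1-let7i and 54.4 and 86.7, both under the floor, in OECM1-mCherry, for bounds of at least 2.72-fold and 1.41-fold higher. The 3 probe sets therefore point one way, and averaging them gave a log2 ratio of 1.12.

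FSTL3, a follistatin relative that also binds activins, was 1.45-fold higher, just inside the 1.5-fold limit. Its signals were 355 in OECM1-let7i and 244 in OECM1-mCherry, a log2 ratio of 0.54 that is 1.60 times the SD of dim probe sets. BAMBI, a membrane pseudoreceptor without a kinase, had 1362 with let-7i and 1255 with the empty vector, a log2 ratio of 0.11 and within the spread of a probe set. GREM1, a secreted BMP antagonist, was below the floor in both of its probe sets, the brighter having 22.8 with let-7i and 39.0 with the empty vector.

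Inside the cell the 7 inhibitors had a median log2 ratio of 0.08. Of these 7, SMAD6 alone was past 1.5-fold, where 5.93% of all genes were lower by that much. SMAD6, an inhibitory SMAD that acts mainly on the BMP branch, had 281 in OECM1-let7i and 464 in OECM1-mCherry, a 1.66-fold lower level. A second, dimmer probe set gave 0.19 (126 with let-7i, 110.4 with the empty vector), and the mean of the probe sets was -0.25, so this difference rests on the brightest. SMAD7, the inhibitory SMAD of both branches, had a log2 ratio of -0.11, with signals of 169 with let-7i and 182 with the empty vector.

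The ubiquitin ligases SMURF1 and SMURF2, which mark receptors and SMADs for degradation, had log2 ratios of 0.15 and 0.08 in their brightest probe sets. Their signals were 872 and 2792 in OECM1-let7i and 785 and 2631 in OECM1-mCherry. SMURF1 had 1 probe set far from the others, 3.08-fold lower with let-7i (118 in OECM1-let7i, 362 in OECM1-mCherry), and the mean over its probe sets was -0.44. Its probe sets do not settle a direction. Those of SMURF2 ran from -0.07 to 0.37.

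SKI and SKIL, nuclear repressors that bind SMAD complexes, were within 1.2-fold in their brightest probe sets, at log2 ratios of 0.21 and 0.17. SKI had 1234 in OECM1-let7i and 1063 in OECM1-mCherry, and SKIL 1020.0 in OECM1-let7i and 904 in OECM1-mCherry. Dimmer probe sets of SKIL were lower, down to -0.40. Those of SKI disagreed, at -0.13 in one and at least 1.61-fold higher in another (142 with let-7i, 49.4 with the empty vector). TGIF1, a homeodomain co-repressor of SMAD2 and SMAD3, was lower in all 3 of its probe sets, from -0.58 to -0.23. The brightest had 2648 in OECM1-let7i and 3088 in OECM1-mCherry, 1.17-fold lower.

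The targets did not move together. The ID proteins are dimerisation partners that block helix-loop-helix transcription factors, and their genes are classic early targets of BMP signalling. ID3 had a signal of 719 in OECM1-let7i and 1908 in OECM1-mCherry, a log2 ratio of -1.41 and rank 57 from the lowest, in its 1 probe set. ID1, in contrast, had 3777 in OECM1-let7i and 3425 in OECM1-mCherry, a log2 ratio of 0.14.

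ID2 was below the floor in both of its probe sets, the brighter having 42.6 with let-7i and 33.2 with the empty vector. TGFBI, a matrix protein named for its induction by TGF-beta, was bright and nearly equal, with 12569.5 in OECM1-let7i and 13906 in OECM1-mCherry, a log2 ratio of -0.15. Of the ID genes, then, 1 was lower, 1 close to equal and 1 too dim to measure. The probe sets of ID3 and ID1 are both of a kind that can match several transcripts, and without such probe sets neither gene has a value.

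The promoters of ID3 and SMAD6 are shown because both genes are known feedback or target genes of BMP signalling and both were lower in their brightest probe sets. They are the 250 bases before the RefSeq start of GRCh38.p14, 5′ to 3′ on the strand of the gene, with capitals for matches on either strand to CAGAC, the short SMAD element, and GTCTAGAC, the palindromic one that SMAD3 and SMAD4 are known to prefer. CAGAC was present in 38.0% of all 35116 windows and in 39.7% of the 73 member windows, so the match in ID3 is common. GTCTAGAC was present in 0.182% of all windows and in 1 member window, that of SMAD6, at bases -12 to -5. Neither motif contains the other. The windows of ID3 and SMAD6 had no match to GGCGCC, and that of INHBB had none to CAGAC or GTCTAGAC. The window of FST was searched as well, had no match to any of these motifs and is not printed.
ID3 promoter, chr1:23559502-23559751, - strand: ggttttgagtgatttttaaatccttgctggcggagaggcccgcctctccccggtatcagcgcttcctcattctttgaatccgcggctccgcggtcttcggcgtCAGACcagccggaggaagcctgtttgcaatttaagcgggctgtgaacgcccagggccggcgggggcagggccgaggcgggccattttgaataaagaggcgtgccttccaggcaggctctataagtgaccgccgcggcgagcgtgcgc
SMAD6 promoter, chr15:66701986-66702235, + strand: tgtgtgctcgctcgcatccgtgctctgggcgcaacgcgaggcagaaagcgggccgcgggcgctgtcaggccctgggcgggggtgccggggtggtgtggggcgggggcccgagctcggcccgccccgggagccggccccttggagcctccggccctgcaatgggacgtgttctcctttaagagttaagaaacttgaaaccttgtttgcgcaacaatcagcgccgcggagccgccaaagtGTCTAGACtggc

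**Figure D3:**
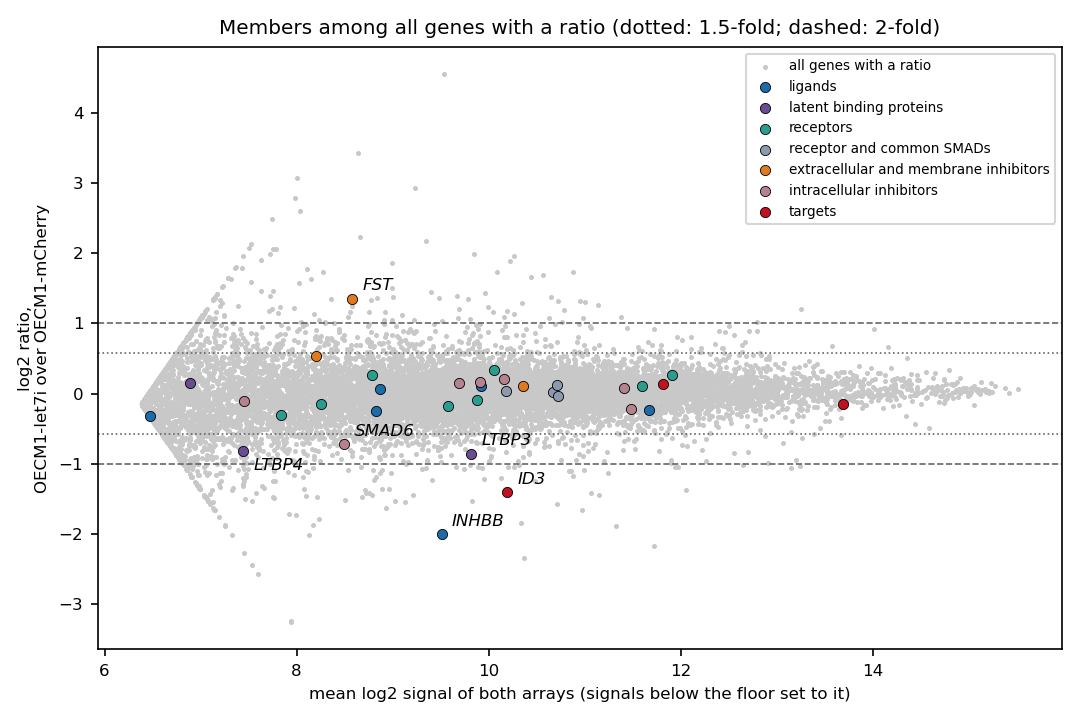
Log2 ratio (OECM1-let7i over OECM1-mCherry) against the mean log2 signal of both arrays for the 12284 genes with a ratio (grey) and the members (coloured by role), with dotted and dashed lines at 1.5-fold and 2-fold. INHBB (-2.01) and ID3 (-1.41) lie below the main cloud and FST (1.36) above it, while LTBP4 and SMAD6 lie among dimmer genes, where the cloud is wide.

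Of 72 other genes of the pathway, 64 had a probe set and 47 a ratio, with a median log2 ratio of 0.04. Past 1.5-fold were 4 higher and 3 lower of these 47, where the backgrounds over all genes were 4.18% and 5.93%. At 2-fold 3 were higher and 1 lower, where the backgrounds were 1.06% and 1.38%. With so few genes these counts are a description. NOG, noggin, a BMP antagonist, had 235 in OECM1-let7i and 95.3 in OECM1-mCherry, 2.46-fold higher in its 1 probe set, close to the floor with the empty vector. DCN, decorin, a proteoglycan that can bind TGF-beta, was 1.97-fold higher (322 with let-7i, 163 with the empty vector), and it is also a fibroblast marker. It has 7 probe sets, of which 1 was measured on both arrays.

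RUNX2, a transcription factor that works with SMADs, was 2.46-fold higher, with 2046 in OECM1-let7i and 829.9 in OECM1-mCherry. Of the 6 probe sets of RUNX2, 1 was measured on both arrays. NEDD4L, a ubiquitin ligase that acts on activated SMAD2 and SMAD3, was 2.08-fold higher, with 863 with let-7i and 414 with the empty vector, and its 3 measured probe sets gave 0.75 to 1.06. INHA, the alpha chain that joins a beta chain to form inhibin, was 2.08-fold lower, at dim signals of 90.9 in OECM1-let7i and 188 in OECM1-mCherry.

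RGMA, a BMP co-receptor, was at least 1.68-fold lower (53.7 in OECM1-let7i, 134 in OECM1-mCherry). BMP8B was also lower as a bound, at least 1.61-fold. When the floor was raised to the 65th percentile, 2 of these genes were past 1.5-fold higher and 0 lower.

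Among 44 genes reported to respond to TGF-beta, 37 had a ratio, and they were not of one direction. Past 1.5-fold were 10 higher and 4 lower, where the backgrounds over all genes were 4.18% and 5.93%, with a median log2 ratio of 0.26. The list mixes genes reported to be induced and a few reported to be repressed, and response differs by cell type. It too was chosen with earlier results of these data known. ZEB1, a repressor of epithelial genes, had 374 in OECM1-let7i and 40.04 in OECM1-mCherry, at least 4.24-fold higher. Its relative ZEB2 had 383 in OECM1-let7i and 102 in OECM1-mCherry, 3.74-fold higher, with 1 of its 5 probe sets measured on both arrays. The matrix gene POSTN had 304 in OECM1-let7i and 76.1 in OECM1-mCherry, a bound of 3.45-fold. The gelatinase MMP2 had 236 in OECM1-let7i and 30.3 in OECM1-mCherry, a bound of 2.68-fold. With the empty vector ZEB1, POSTN and MMP2 were under the floor.

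The lowest were TIMP3, a metalloproteinase inhibitor, and IGFBP3, which binds insulin-like growth factors. TIMP3 had 586 in OECM1-let7i and 2987 in OECM1-mCherry, 5.11-fold lower, and IGFBP3 had 1588 in OECM1-let7i and 7141 in OECM1-mCherry, 4.51-fold lower. Without probe sets that can match several transcripts, 3 genes of the list were past 1.5-fold higher and 1 lower, with a median of 0.12. COL1A1 and POSTN also stand among the fibroblast markers, of which 3 (POSTN, DCN and FAP) were past 1.5-fold higher and FBLN1 past it lower, and their part in this result was not tested.

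Of 15 genes reported to respond to BMPs 9 had a ratio, 3 of them past 1.5-fold higher and 2 lower, where the backgrounds over all genes were 4.18% and 5.93%. Their median log2 ratio of 0.07 depended on the probe sets and the floor. It was 0.79 without probe sets that can match several transcripts and -0.07 with the floor lowered to the 25th percentile. NOG and RUNX2, which were also counted among the other pathway genes above, and the homeobox gene MSX1 were higher. MSX1 had 1052 in OECM1-let7i and 511 in OECM1-mCherry, and log2 ratios of 1.04 and 0.77. ATOH8, a helix-loop-helix factor, was 1.70-fold lower, with 107 with let-7i and 182 with the empty vector. GATA3, a transcription factor of epithelia, had 3937 with let-7i and 6162 with the empty vector, 1.57-fold lower, but its 3 probe sets ran from -0.65 to 0.61. GATA2, a related factor, was 1.46-fold lower (816 with let-7i, 1186 with the empty vector), and all 3 of its probe sets were lower.

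**Figure D4:**
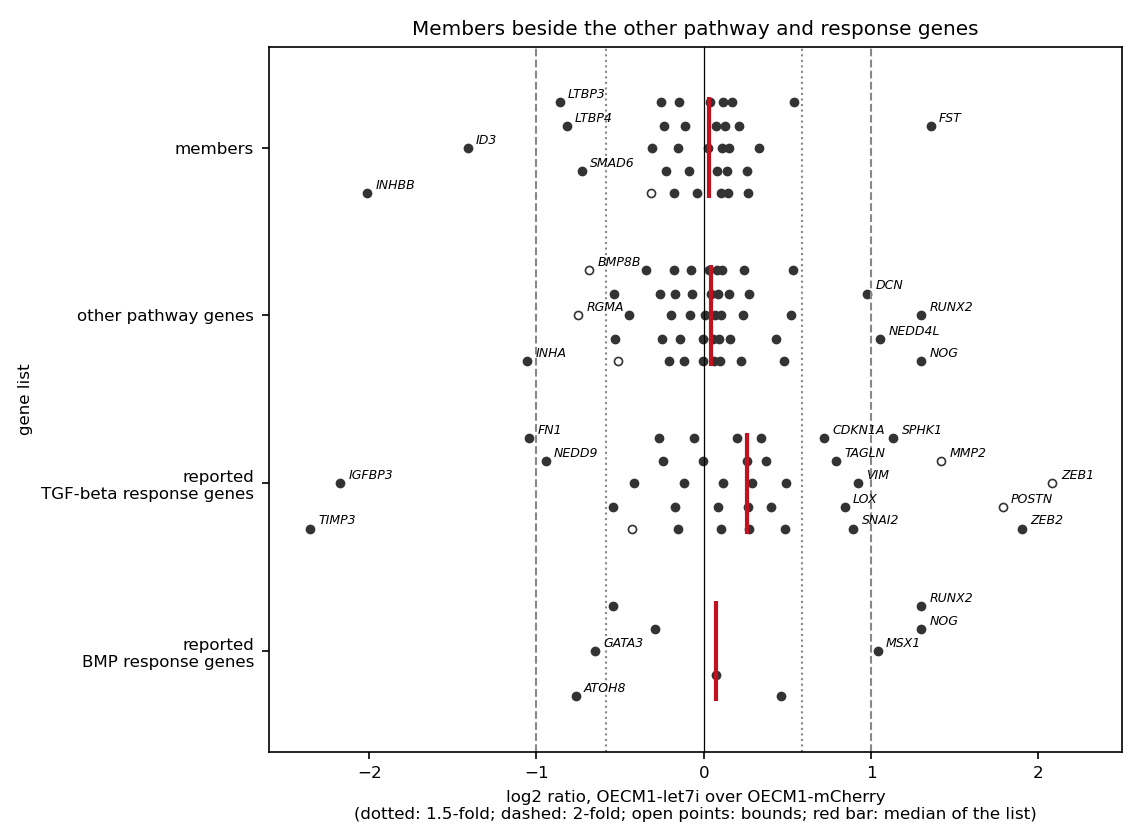
Log2 ratio (OECM1-let7i over OECM1-mCherry) of the members and of the 3 other lists of pathway and response genes, 1 point per gene with a ratio, bounds open, medians as red bars, and names for genes past 1.5-fold. A gene that stands in several lists, such as NOG or RUNX2, has a point in each. The medians of the members (0.03), of the other pathway genes (0.04) and of the BMP response genes (0.07) lie close to 0 and that of the TGF-beta response genes at 0.26 (the BMP one was 0.79 without shared probe sets), with genes past 1.5-fold on both sides of every list.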

How the data were processed

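Total RNA of 1 OECM1-let7i and 1 OECM1-mCherry culture was labelled with biotin, per the labels' protocols. The authors deposited 1-colour intensities, 1 value for each probe set of an array. The submitters' processing notes name MAS5 (version and settings not given in the sources used here). Values are linear, with a 2% trimmed mean of 500.1 on both arrays. MAS5 subtracts mismatch signal, so dim values are noisy. Detection calls were not used here. The number of arrays limits the precision.

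Of 54675 probe sets, 41097 carried 1 gene symbol in the platform annotation and were used (1801 carried several and 11777 none), and 41043 matched RefSeq. The members and lists were chosen with earlier results of these data known. Each gene was represented by its brightest probe set, by mean log2 signal. The floor was the 50th percentile of each array, and log2 ratios were centred by a shift of 0.0036. With 1 array a group, size was the sole criterion, at 2-fold and 1.5-fold. All members are named, as are the up to 6 largest ratios of each other list of pathway or response genes, while marker lists are given as sums and counts, with the genes past 1.5-fold and, for epithelial and fibroblast markers, those below the floor. The probe set spread is the SD, over genes, of the difference in log2 ratio between 2 probe sets measured for the same gene (the brightest ones), over the square root of 2.

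The alternatives tried were quantile normalization, no centring, centring by lowess (3 iterations, fraction 0.3), a floor at the 25th percentile or at the 65th, the mean of the probe sets, leaving out probe sets ending in _s_at, _x_at or _a_at, genes measured on both arrays only, and 3-fold in place of 2-fold. The scripts were tested on simulated data. Tools were pandas 2.3.3, NumPy 2.4.6, Matplotlib 3.10.9 and statsmodels 0.14.6 under Python 3.11.15. Motifs were sought in the RefSeq promoter table of GRCh38.p14.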

Additional observations from a re-analysis of the deposited data

How the results depend on the processing

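No paired analysis was possible because each group has 1 array. FST and INHBB were past 2-fold in the same direction in all 9 settings that gave new ratios, the reported one included, and ID3 in all those that kept its probe set. Without shared probe sets 25 members kept a ratio, while TGFB1, BMP4, BMP7, LTBP1, LTBP4, FSTL3, SMAD6, ID1 and ID3 lost theirs. Among those 25, 1 member was past 2-fold lower and 1 past 1.5-fold lower. LTBP4 reversed with the mean of probe sets (0.056) and was -0.12 with the floor raised to the 65th percentile. Averaging probe sets left 3 members past 1.5-fold lower and moved the median of the members to -0.095. A floor at the 25th percentile gave 7 members past 1.5-fold lower and 3 past 2-fold lower, BMP7 among them at -1.22. One at the 65th percentile gave 4 members past 1.5-fold lower. Lowess centring and quantile normalization put FSTL3 past 1.5-fold as well, which made 2 members higher. A threshold of 3-fold left 0 members higher and 1 (INHBB) lower, and 34 and 24 of all genes. Over all genes at 2-fold, a floor at the 25th percentile gave 654 higher and 1113 lower and one at the 65th percentile 62 and 71. After lowess centring 154 were higher and 145 lower, against 130 and 169 in the values reported. Of the other pathway genes past 1.5-fold, 6 were lower with a floor at the 25th percentile, 2 higher and 0 lower with one at the 65th percentile, 1 lower without shared probe sets and 1 lower over genes measured on both arrays. TGF-beta response genes numbered 3 higher and 1 lower without shared probe sets. BMP response genes numbered 4 lower with a floor at the 25th percentile, 1 lower with one at the 65th, 0 lower with the mean of probe sets, and 5 higher and 1 lower without shared probe sets. Signal over background limits BMP2, ACVR1C, SMAD4, GREM1 and ID2, which have no ratio. For the changes under other probe set choices the cause was not tested.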
